A study of Mus musculus with 2 samples.

Results

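Parvalbumin interneurons (PVGA) of mouse primary motor cortex were examined in 2 droplet-based single-nucleus ATAC-seq libraries, an assay in which Tn5 transposase cuts accessible DNA and each nucleus is read through its own barcode. PVGA nuclei were taken by the name deposited for each nucleus, which gave 735 of 16314 nuclei, with 337 of 7440 in replicate 1 and 398 of 8874 in replicate 2. Both libraries come from the MOp-2 dissection (slice 3) of adult C57BL/6J male mice of 56 to 63 days, and form 1 condition without a control. Per the methods, 2 biological replicates were processed for each dissection, each pooled from tissue of several mice. This is not stated separately for these droplet libraries, so biological and technical spread between them cannot be told apart.

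Parvalbumin interneurons are fast-spiking GABAergic cells that arise in the medial ganglionic eminence and inhibit pyramidal neurons mainly around the cell body. Somatostatin interneurons (SSTGA) share that origin and mainly contact dendrites, whereas interneurons of the caudal ganglionic eminence (CGE) include the Vip and Lamp5 types. Mature fast-spiking cells are known for high firing rates and a high demand for energy.

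Pvalb, Erbb4 and Pthlh, which the study lists among the marker genes of PVGA, are all protein-coding and on the minus strand of mm10 (GRCm38, GENCODE M21). Pvalb, which encodes the calcium buffer parvalbumin, occupies chromosome 15 from 78191114 to 78206400. Erbb4, which encodes a neuregulin receptor tyrosine kinase, occupies chromosome 1 from 68032186 to 69108059. Pthlh, which encodes parathyroid hormone-related protein, occupies chromosome 6 from 147252101 to 147264183. Accessibility of these genes was not analysed here, since the per-nucleus tables used carry no gene columns. The label PVGA is therefore taken as deposited, without a check against its markers.

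PVGA was the largest interneuron group in both libraries. It made up 4.53% of all nuclei in replicate 1 (exact 95% interval 4.07 to 5.03) and 4.49% in replicate 2 (4.06 to 4.94). Among neurons its share was 7.14% (6.42 to 7.91) and 6.94% (6.29 to 7.62). Among GABAergic nuclei it was 40.2% (36.8 to 43.6) and 38.4% (35.4 to 41.4). Clopper-Pearson intervals were used throughout and cover counting error only. The libraries lay within counting error of each other on every one of these shares.

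PVGA nuclei held 2720052 unique fragments in replicate 1 and 3022600 in replicate 2. These amounted to 5.65% and 5.46% of all unique fragments, above the share of PVGA in nuclei. SSTGA supplied 3.64% and 3.67%, and CGE 3.36% and 3.67%. With these numbers a PVGA profile summed over nuclei rests on 1.55 and 1.49 times as many fragments as the SSTGA profile of the same library.

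For every 100 glutamatergic nuclei there were 8.68 PVGA nuclei in replicate 1 (7.74 to 9.71) and 8.47 in replicate 2 (7.62 to 9.38), a mean of 8.57 ± 0.152 (SD, n = 2 libraries). SSTGA came to 6.36 (5.57 to 7.24) and 6.42 (5.70 to 7.22). CGE came to 6.57 (5.76 to 7.46) and 7.17 (6.40 to 8.01). The PVGA interval lay above that of SSTGA in both libraries, and above that of CGE in replicate 1 but not in replicate 2. Set directly against each other, there were 136 PVGA nuclei per 100 SSTGA nuclei in replicate 1 (115 to 161) and 132 in replicate 2 (113 to 154). Per 100 CGE nuclei there were 132 (112 to 156) and 118 (102 to 137). PVGA therefore outnumbered both groups beyond counting error in each library.

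The relation to single excitatory groups was less even. PVGA nuclei per 100 intratelencephalic nuclei of layer 5 (ITL5GL) numbered 52.6 in replicate 1 (45.9 to 60.1) and 51.0 in replicate 2 (45.1 to 57.6). Per 100 nuclei of layer 2/3 (ITL23GL) they numbered 28.8 (25.5 to 32.6) and 33.4 (29.8 to 37.5), the lowest ratio of the 7 excitatory groups in each library. For layer 4 (ITL4GL, 57.9 and 64.0) and layer 6 (ITL6GL, 58.8 and 54.4) the intervals of the libraries also overlapped.

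Against corticothalamic and pyramidal tract neurons, the ratio differed more between the libraries. Per 100 corticothalamic nuclei (CTGL) there were 51.8 PVGA nuclei in replicate 1 (45.3 to 59.2) and 40.3 in replicate 2 (35.8 to 45.3). Per 100 pyramidal tract nuclei (PTGL) there were 183 (153 to 220) and 122 (105 to 142). The intervals did not overlap for PTGL and just touched for CTGL. Replicate 1 held 184 PTGL, 650 CTGL and 337 PVGA nuclei, and replicate 2 held 326, 987 and 398. Per 100 near-projecting nuclei (NPGL), the smallest excitatory group, there were 406 (318 to 523) and 642 (490 to 853), with overlapping intervals. Overlap of intervals does not decide whether the libraries differ beyond counting error, which was not tested.

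**Figure D1:**
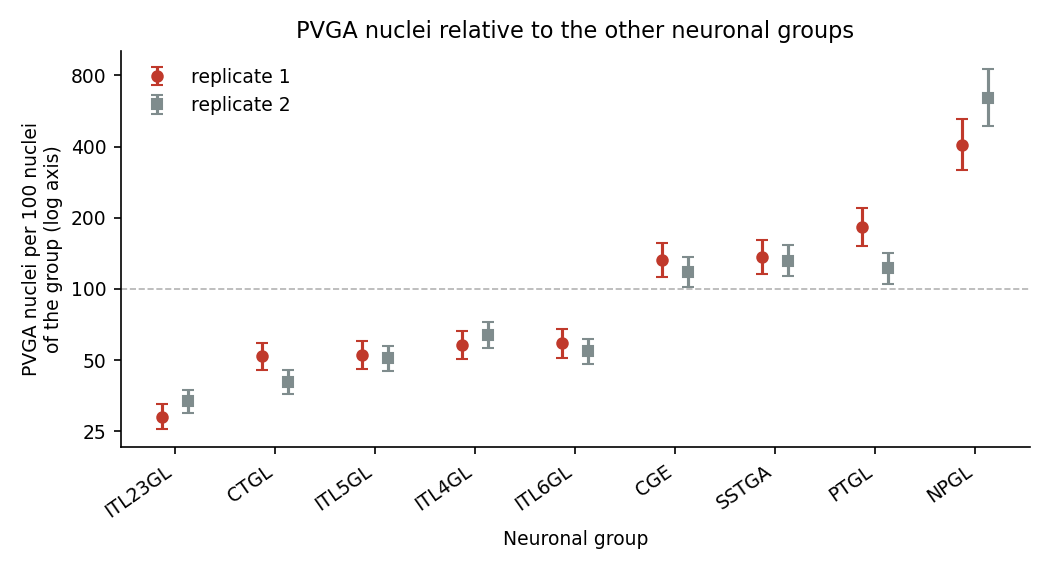
PVGA nuclei per 100 nuclei of each other neuronal group (log axis) in replicates 1 and 2, as points with exact 95% intervals that cover counting error only. The points lie above 100 for CGE, SSTGA, PTGL and NPGL and below 100 for the other excitatory groups, and the 2 libraries part most for CTGL, PTGL and NPGL.

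Fragments per nucleus were counted at 4 steps: all fragments, those uniquely mapped, those properly paired, and those unique after removal of duplicates. The median PVGA nucleus of replicate 1 had 9752 total, 9414 uniquely mapped, 9362 properly paired and 8082 unique fragments. In replicate 2 these medians were 8456.5, 8171.5, 8132.5 and 7012.5. Most of the fragments lost between the first and the last step were duplicates.

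Unique fragments of PVGA nuclei ranged from 1051 to 22262 in replicate 1, with quartiles of 6088 and 9769. In replicate 2 they ranged from 1010 to 22481, with quartiles of 5024 and 9401. The spread was wider in replicate 2, where the SD of log10 fragments was 0.246 against 0.198. The upper quartiles of the libraries were closer than the lower ones. Nuclei with fewer than 5000 unique fragments made up 14.5% of PVGA in replicate 1 (11.0 to 18.8) and 24.9% in replicate 2 (20.7 to 29.4). Those with at least 10000 made up 22.0% and 21.9%. The wider spread in replicate 2 was not particular to PVGA, with SDs of 0.227 and 0.241 in SSTGA and 0.190 and 0.219 in CGE. The share under 5000 also rose in SSTGA (22.3% and 31.1%), CGE (29.8% and 38.0%) and glutamatergic nuclei (11.9% and 20.4%).

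PVGA nuclei carried more fragments than those of the other interneuron groups in both libraries. SSTGA had a median of 7047 in replicate 1 and 6666 in replicate 2, and CGE had 6105 and 5668. The ratio of the PVGA median to that of SSTGA was 1.15 and 1.05, a mean of 1.10 ± 0.0671 (SD, n = 2). To CGE it was 1.32 and 1.24, a mean of 1.28 ± 0.0613. The difference from SSTGA in replicate 2, 7012.5 against 6666 fragments, was smaller than the difference of 1069.5 fragments between the PVGA medians of the libraries. PVGA still lay just below excitatory neurons as a class, at 0.961 and 0.901 of their median. Among the 17 annotated groups its median stood at rank 5 and rank 7.

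With 2 libraries, an exact sign-flip permutation test cannot give a two-sided p below 0.5 for any difference between groups. Each such difference is therefore given by library, and this test cannot pass 0.05.

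**Figure D2:**
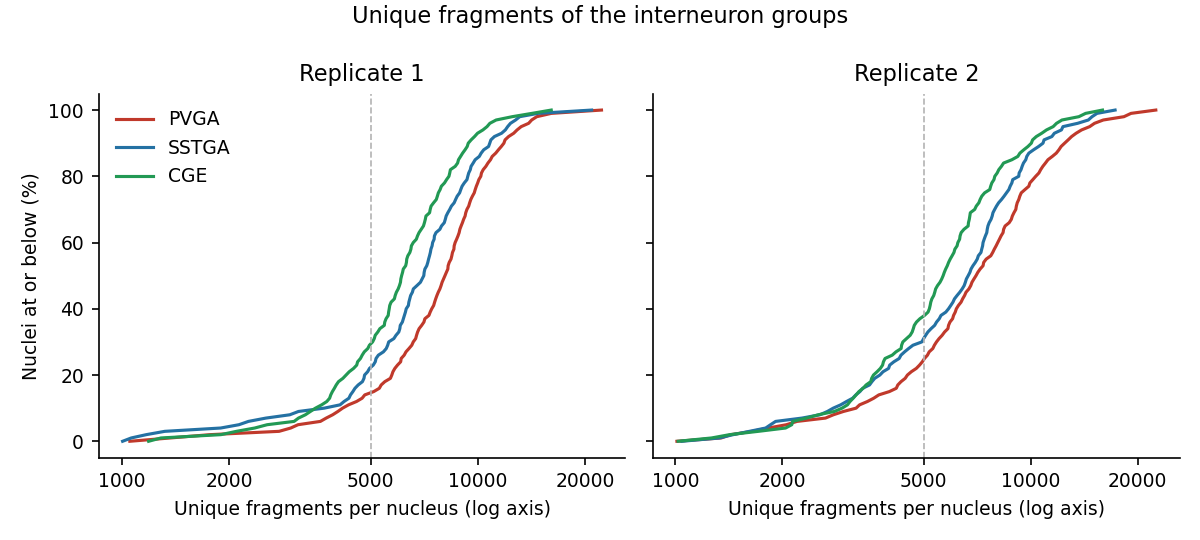
Percentage of nuclei (vertical axis) with at most a given number of unique fragments (log axis) for PVGA, SSTGA and CGE in each library; the dashed line marks 5000 fragments. Through the middle of the distribution PVGA lies to the right of SSTGA and CGE in both libraries, and the medians of PVGA are 8082 and 7012.5.

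The share of PVGA among interneurons was higher under a higher minimum of fragments per nucleus. With at least 5000 unique fragments PVGA made up 43.7% of GABAergic nuclei in replicate 1 (39.9 to 47.6) and 41.8% in replicate 2 (38.1 to 45.5). With at least 10000 it made up 57.8% (48.8 to 66.5) and 54.0% (46.0 to 61.9), on 74 and 87 PVGA nuclei. SSTGA stood at 28.1% and 24.2% under that minimum, from 29.4% and 29.1% in all nuclei. CGE stood at 14.1% and 21.7%, from 30.4% and 32.5% in all nuclei. Relative to excitatory neurons the direction was the opposite. At 10000 fragments there were 6.71 PVGA nuclei per 100 glutamatergic nuclei in replicate 1 and 6.74 in replicate 2, down from 8.68 and 8.47. The other interneuron groups fell by more than PVGA. SSTGA went from 6.36 and 6.42 to 3.26 and 3.02, and CGE from 6.57 and 7.17 to 1.63 and 2.71. These changes follow by construction from the counts and fragment distributions of the groups.

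**Figure D3:**
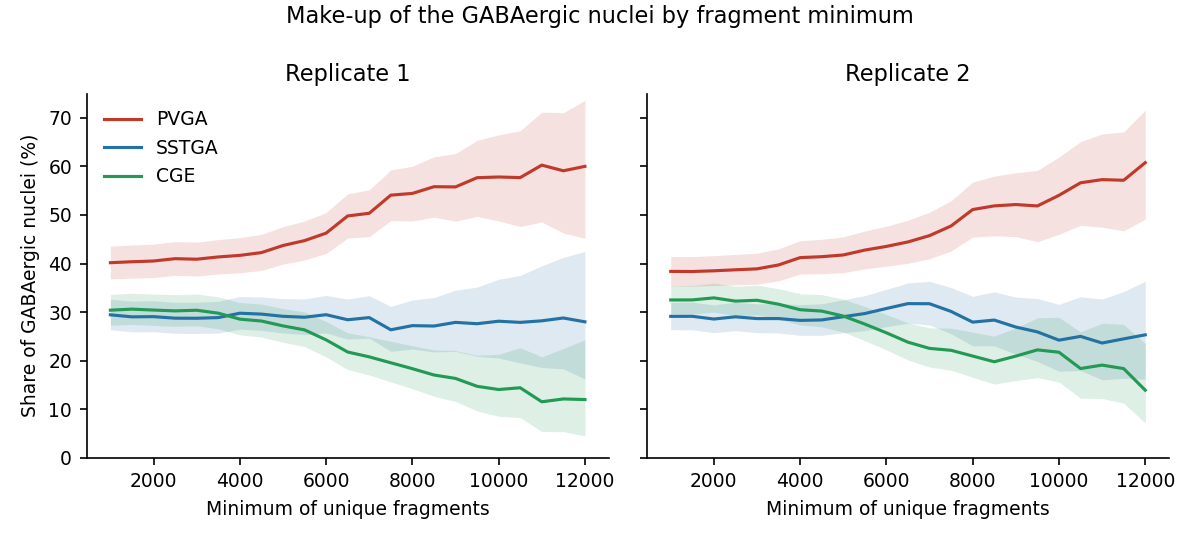
Share of PVGA, SSTGA and CGE among GABAergic nuclei (%) as the minimum of unique fragments is raised from 1000 to 12000, in each library; bands are exact 95% intervals that cover counting error only. PVGA goes from 40.2% and 38.4% at the lowest minimum to 57.8% and 54.0% at 10000.

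PVGA had the highest median share of uniquely mapped fragments of the 17 annotated groups in both libraries. The median PVGA nucleus had 96.41% of its fragments uniquely mapped in replicate 1 (quartiles 96.17 and 96.59) and 96.44% in replicate 2 (96.14 and 96.71). The next group was pericytes (PER, 96.29%) in replicate 1 and ITL6GL (96.34%) in replicate 2. SSTGA stood at 96.12% and 96.21%, and CGE at 96.19% and 96.28%. PVGA exceeded SSTGA by 0.292 and 0.236 percentage points, a mean of 0.264 ± 0.0393 (SD, n = 2), and CGE by 0.221 and 0.166, a mean of 0.193 ± 0.0385. The distributions overlapped, with the lower quartile of PVGA near the SSTGA median in both libraries.

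PVGA was also compared with SSTGA and CGE at similar counts of unique fragments, in nuclei drawn once at random. The other groups were not matched. When PVGA and SSTGA nuclei of a library were matched on unique fragments, with 223 nuclei each in replicate 1 and 298 in replicate 2, PVGA was higher by 0.318 and 0.263 percentage points. Matched to CGE, on 200 and 288 nuclei each, it was higher by 0.204 and 0.215. In replicate 1, none of the 337 PVGA nuclei had under 94% of fragments uniquely mapped. In replicate 2, 7 of 398 did, and the lowest was at 90.6%. Under 94% were 2 of 247 and 5 of 302 nuclei of SSTGA, and 5 of 255 and 18 of 337 of CGE. In replicate 2 the proportions of PVGA and SSTGA were thus similar.

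**Figure D4:**
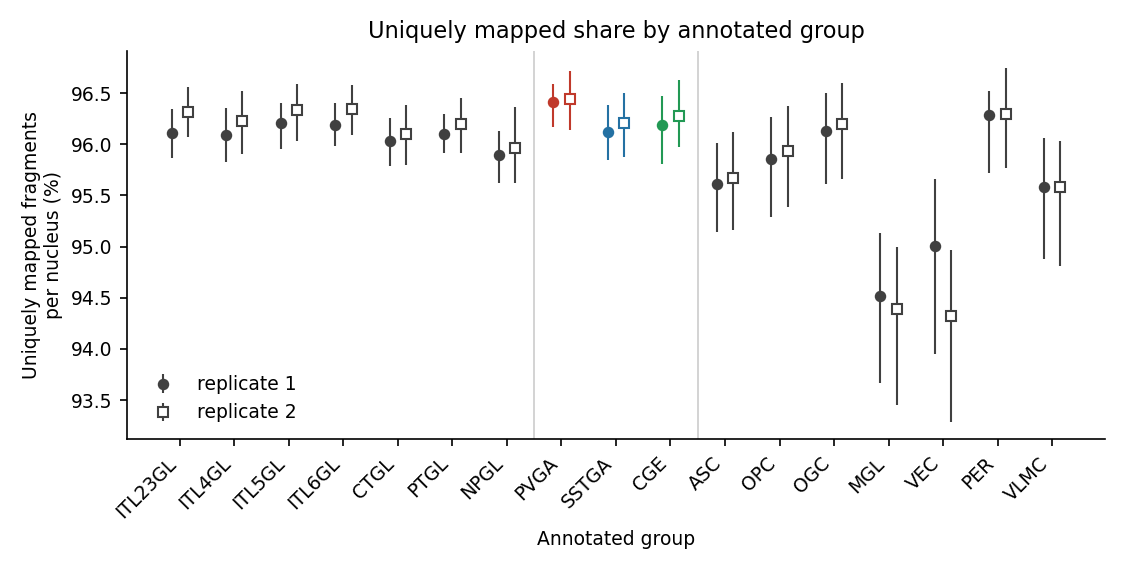
Uniquely mapped fragments per nucleus (%) in the 17 annotated groups, as medians with quartiles over nuclei, filled for replicate 1 and open for replicate 2; grey lines part glutamatergic, GABAergic and non-neuronal groups. PVGA has the highest median in both libraries, at 96.41% and 96.44%, with quartiles that overlap those of most neuronal groups. The vertical axis does not start at 0.

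Properly paired shares did not set PVGA apart. The median was 99.48% of uniquely mapped fragments in replicate 1 and 99.50% in replicate 2, where SSTGA had 99.47% and 99.51% and CGE 99.49% and 99.52%. The duplicate share of PVGA had a median of 13.6% in replicate 1 and 14.4% in replicate 2. It differed from that of SSTGA by 0.0319 and -0.0376 percentage points, so the order of the groups turned between the libraries. From CGE it differed by -0.0952 and -0.173. Between nuclei matched on unique fragments, PVGA was lower in both libraries. The differences were -0.0709 and -0.0978 percentage points from SSTGA, and -0.189 and -0.328 from CGE. Matched nuclei were drawn once at random, so these values rest on that draw. The difference of 0.881 percentage points between the PVGA medians of the libraries was larger than any of these differences.

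Within PVGA, deeper nuclei had slightly more duplicates. With PVGA nuclei of each library split into 4 equal groups by unique fragments, the median duplicate share was 13.1% in the lowest group and 13.8% in the highest in replicate 1, and 14.03% and 14.61% in replicate 2. Over nuclei, which are not independent replicates, Spearman's rho was 0.307 in 337 nuclei and 0.271 in 398 nuclei. This was not particular to PVGA, with rho of 0.286 and 0.340 in SSTGA and 0.421 and 0.301 in CGE. The same fragments enter both measures.

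In the deposited UMAP embedding PVGA formed 1 island that held no other group. Islands were sets of nuclei joined within a radius of 0.5 embedding units. All 735 PVGA nuclei lay in that island, and each of the 30 nearest neighbours of every one of them was also PVGA. SSTGA and CGE formed islands of 549 and 592 nuclei with the same purity. Such purity was not particular to interneurons, since astrocytes (ASC, 1690 nuclei), pericytes (111) and VLMC (326) also had only neighbours of their own name. At the other extreme, 918 of 1305 ITL6GL nuclei had only such neighbours, the smallest proportion of the 17 groups. Names and embedding come from the same accessibility profiles, so this is a description and no test of the annotation.

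PVGA and SSTGA had no common border. No PVGA nucleus had an SSTGA nucleus among its 30 neighbours in either library, and the closest pair of the 2 groups was 8.89 units apart. The PVGA island itself was 2.25 units long. The nearest nucleus of any other group was PTGL, at 4.41 units, closer than SSTGA, and CGE was no closer than 18.6. Distances between islands in such an embedding are not a measure of relatedness. Whether it was computed on these nuclei alone is not stated by the labels or methods.

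Both libraries filled the PVGA island. For PVGA nuclei of replicate 1, 52.5% of neighbours came from replicate 2, which held 54.2% of the remaining PVGA nuclei. For those of replicate 2, 45.3% came from replicate 1, which held 45.9%. Over single PVGA nuclei this share ran from 23.3% to 80% in replicate 1 and from 20% to 76.7% in replicate 2, so no PVGA nucleus had neighbours of 1 library only. Both libraries held 105 barcode sequences in common, and 11 of these were named PVGA in at least 1 library and 1 in both. PVGA made up 4.53% and 4.49% of all nuclei, and no result about PVGA is drawn from this count.

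Fragment counts varied along the island. Its long axis ran almost parallel to the first UMAP coordinate and held 86.4% of its spread. Divided into 5 parts with equal numbers of nuclei along that axis, the median count of PVGA in replicate 1 was 9170.5, 8736, 8431.5, 7430 and 6043 unique fragments. In replicate 2 it was 9109, 7806, 7990, 6786 and 5891. The part at the low end of the axis thus had 1.52 and 1.55 times the median of the part at the high end, more than the 1.15 between the PVGA medians of the libraries. Neither library was concentrated at 1 end, with 72 to 64 nuclei per part in replicate 1 and 75 to 83 in replicate 2.

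SSTGA showed a ratio of similar size between the low and high ends of its own island, at 1.42 and 1.43. In CGE the same ratio was 0.791 and 0.705, so there the high end was the deeper. Spearman's rho between position and unique fragments was -0.369 and -0.303 over PVGA nuclei, -0.290 and -0.186 over SSTGA, and 0.289 and 0.311 over CGE, whose axis runs along the second coordinate. All 3 interneuron islands thus differed in depth between their ends, but the change was not always gradual. In SSTGA of replicate 1 the largest fall between neighbouring parts lay at the low end (8896 to 6344). In replicate 2 it lay at the high end (7058.5 to 5079). In CGE of replicate 2 the middle part had the highest median, at 6983.5.

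The uniquely mapped share ran the other way along the PVGA island. Its median was 96.38% at the low end and 96.46% at the high end in replicate 1, and 96.17% and 96.65% in replicate 2, with rho of 0.195 and 0.353. In SSTGA rho was 0.0146 and -0.0628, and in CGE 0.0143 and -0.188, so in replicate 2 the uniquely mapped share of CGE also ran opposite to its depth. The low end minus the high end came to -0.0756 and -0.481 percentage points in PVGA, -0.0729 and 0.143 in SSTGA, and -0.0933 and 0.224 in CGE. In replicate 1 the difference between the ends of the PVGA island lay between those of SSTGA and CGE in size. Within the 4 groups of PVGA nuclei by unique fragments, rho between the first coordinate and the uniquely mapped share lay between 0.0931 and 0.278 in replicate 1 and between 0.203 and 0.498 in replicate 2. These coefficients describe nuclei of 2 libraries and carry no p-value.

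**Figure D5:**
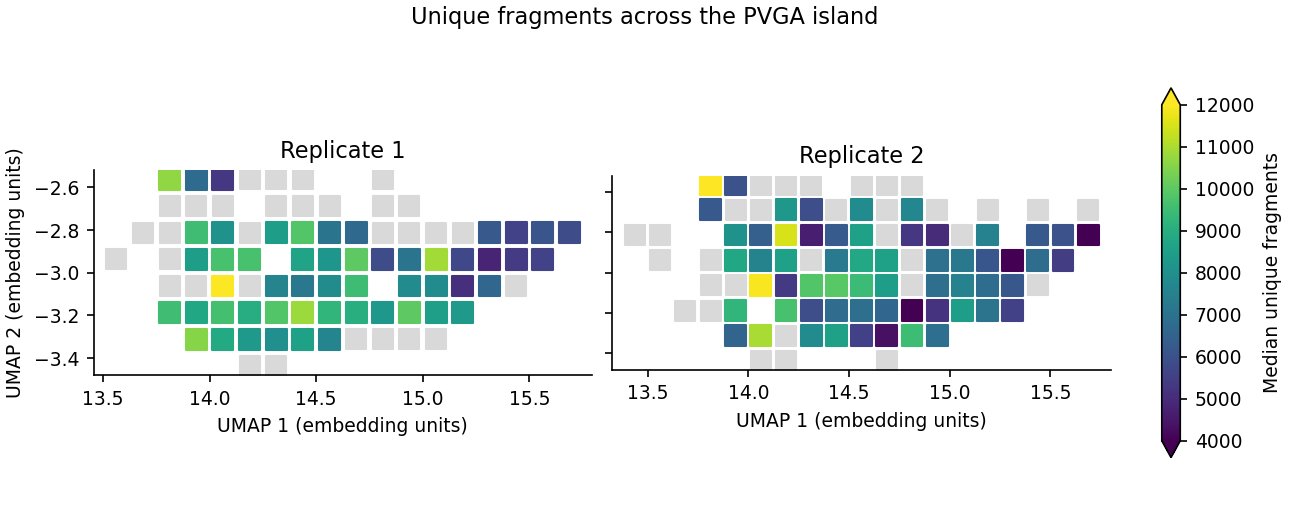
The PVGA island in the deposited embedding (UMAP 1 and UMAP 2, in embedding units) for each library, in squares of 0.125 units coloured by the median unique fragments of their nuclei; squares with fewer than 3 nuclei are grey. Median counts fall from the left to the right end of the island in both libraries, from 9170.5 to 6043 and from 9109 to 5891 over 5 equal parts.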

How the data were processed

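Nuclei of 2 libraries were analysed as the authors deposited them, in tables of whole-number fragment counts per nucleus, log10 of the unique count plus 1, UMAP coordinates (a score in arbitrary units) and an annotated name. The methods describe alignment to mm10 (GRCm38) by bwa, filters on mapping quality, pairing and length, and removal of duplicates by SnapTools. They also describe filters of nuclei on fragments and TSS enrichment, and removal of barcode collisions and of doublets by a modified Scrublet, without stating whether each applied to the droplet libraries. A minimum on fragments leaves out shallow nuclei and so bears on shares of groups. BWA and Cell Ranger ATAC are named in the submitters' processing notes, with versions not given in the sources used here. The count columns were read by the names SnapTools uses. The lowest unique count was 1000, and the mitochondrial count was 0 in every nucleus.

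Replicates 1 and 2 held 48179226 and 55337466 unique fragments. Each library's shares carry exact 95% intervals (Clopper-Pearson), and ratios use the same binomial split. Values are medians over nuclei, then mean and SD over libraries. Islands were found with DBSCAN (radius 0.5, at least 10 nuclei). Matching used 10 bins of log10 unique fragments. The steps were tested on simulated data. No count model was used, since no feature table was analysed, and nuclei were not used as replicates. The text names PVGA, SSTGA, CGE, the excitatory groups and the markers of PVGA. Groups, measures and alternatives were chosen with earlier results of these data known. The uniquely mapped share against other groups, and parts of the island, were chosen after values were seen. Tables were handled in pandas 2.3.3 and numpy 2.4.6 under Python 3.11.15. Intervals came from scipy 1.17.1, neighbours and islands from scikit-learn 1.9.0, and plots from matplotlib 3.10.9. Random matching used seed 1.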

Additional observations from a re-analysis of the deposited data

How the results depend on the processing

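Of 125 values under alternatives for 19 results, 107 moved by no more than the SD between the libraries and 18 moved by more. A reversal was looked for only in the differences in uniquely mapped share, chosen after values were seen, and 0 were found. The 107 include values of single libraries and of an exclusion that removed no nuclei, none of which could move by more. The difference in duplicate share from SSTGA, which was not called, changed sign between the libraries (0.0319 in replicate 1 and -0.0376 in replicate 2). With at least 5000 unique fragments, PVGA made up 6.46% of all nuclei and 42.7% of GABAergic nuclei, with 8.21 per 100 glutamatergic nuclei, 1.47 per SSTGA nucleus and 1.52 per CGE nucleus. Its median was then 8393 fragments, 1.22 times that of CGE, the properly paired share 99.51%, the duplicate share differed by -0.0626 percentage points from SSTGA and by -0.222 from CGE, and the uniquely mapped share was 0.154 points above the next group. With at least 2000 these were 4.88% of all nuclei and 0.142 points. When the deepest 5% of nuclei were left out, PVGA made up 4.47% of all nuclei, 8.80 per 100 glutamatergic and 1.30 per SSTGA nucleus. Matched once at random on unique fragments, the duplicate share differed by -0.0843 points from SSTGA and by -0.259 from CGE. The minimums remove shallower groups by construction; other causes were not tested. With only 2 libraries, neither can differ from their mean by over 1 SD. The share of PVGA with an SSTGA neighbour was 0% under every alternative run for it, and 1 island held 100% at radii of 0.25, 0.5 and 1, but 23 and 5 nuclei lay outside at the smaller radii of 0.1 and 0.15. Pooling and other numbers of neighbours moved no value by more than 1 SD. No nuclei lay outside the islands of the 3 interneuron groups, so leaving those out changed nothing. Doublet scores and TSS enrichment were not analysed here. No paired analysis was possible because there are no separate conditions to pair by replicate number; differences between cell groups were already taken within each library.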

Other observations

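At a radius of 0.1 embedding units, chosen after seeing the data, PVGA separated into 2 dense parts of 679 and 33 nuclei, with 23 nuclei in neither. The smaller part held 4.75% of PVGA in replicate 1 (16 nuclei) and 4.27% in replicate 2 (17 nuclei). Its median was 8806 and 9242 unique fragments, beside 8082 and 6904.5 in the larger part. Towards the low end of the long axis, where this smaller part lay, the first of the 5 equal parts had medians of 9170.5 and 9109. Nuclei of the smaller part also lay at that end, and the others there were not taken alone. Whether the greater depth was particular to the smaller part was therefore not tested. At a radius of 0.15 PVGA was 1 part with 5 nuclei outside it. The smaller part carries no name here, since no gene-level values were analysed.

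A few PVGA nuclei had hardly any duplicates. Under 5% of properly paired fragments were duplicates in 2 nuclei of replicate 1 and 1 nucleus of replicate 2, where the medians were 13.6% and 14.4%, and the lowest values were 2.00% and 3.32%. SSTGA had 1 and 0 such nuclei and CGE 2 and 0.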
